A study of Arabidopsis thaliana with 12 samples.

Results

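Among 22746 probe sets of an Arabidopsis thaliana array, 184 were higher in wild-type roots kept without iron (Fe) than in wild-type roots kept with Fe, while wild-type shoots showed little difference. They were chosen by the wild-type values alone. The mean log2 level of the 2 root arrays without Fe had to exceed that of the 2 root arrays with Fe by 1 or more, with both arrays of the first group above both of the second. The same difference in shoots had to lie between -0.45 and 0.45. These numbers were met by 196 probe sets, of which 12 were left out by name, among them MTP8 and XTH26. The array annotation gave 1 gene for 92 of the 184 members, several genes for 3 and none for 89. Members with 1 gene are called by that gene below, and the others by their probe set name. The root and shoot differences of wild type are therefore a description of what was chosen. No test of them is given for the members as a set, and their calls appear only as counts for gene lists.

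The study profiled 12 arrays, 2 biological replicates in each of 6 groups. Wild-type Col-0 roots without Fe, irt1 roots with Fe and wild-type roots with Fe were the root groups, and the shoot groups were the same 3. Seedlings of all groups spent 10 days on a sucrose-containing control agar and then 5 days on agar washed with EDTA to remove metals, and were harvested at an age of 15 days, 3 h after lights on. The medium with Fe held 10 µM of the chelate Fe-HBED, and Fe was omitted from the other. The mutant carries the irt1-2 allele, also called pam42, of IRT1, and it was grown with Fe in both organs. How many seedlings made up a sample is not given in the sources used here, and each array is of a whole organ. In whole organs, fewer cells of a type and less RNA per cell cannot be told apart.

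IRT1 is the main transporter by which Arabidopsis root epidermal cells take up ferrous iron, after ferric iron has been mobilised by phenolics and reduced at the root surface. Plants short of Fe switch on this uptake machinery in the outer root, under transcription factors that are themselves held in check by ubiquitin ligases with Fe-binding hemerythrin domains. This uptake takes place in roots, where Fe enters the plant, and irt1 mutants are starved of Fe on media that suffice for wild type.

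Across probe sets the 2 replicates of a group correlated at r of 0.991 to 0.996, and array medians lay between 5.4 and 5.6. The GAPDH control for RNA integrity singled out replicate 1 of the irt1 shoots. Its 3' minus 5' log2 difference was 1.6 there and 0.7 to 1 on the other 11 arrays, so counts and calls that rest on irt1 shoots are also given without that array. Organ labels were checked on the irt1 arrays. All 4 measured root-predominant genes were called higher in roots than in shoots and all 6 measured photosynthesis genes were called lower, where 28.5% and 24.1% of all probe sets were called. The annotation does not name the probe set of IRT1 itself, so the mutation could not be checked by its own transcript.

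The members as a group read low in shoots and higher in roots, with Fe or without. The median over the members of an array was 7.15 and 7.40 in wild-type roots without Fe, 6.65 and 6.5 in irt1 roots, and 5.75 and 5.60 in wild-type roots with Fe. It was 3.9 and 3.9 in wild-type shoots without Fe, 3.9 and 4.0 in irt1 shoots, and 4.0 and 3.8 in wild-type shoots with Fe. Of the 184 members, 85 (46.2%) read 4.0 or less on each of the 6 shoot arrays. Log2 differences near the lower end of the scale, which starts at 1.9, understate changes, so a small shoot difference of such a member is no measure of how a well expressed gene would behave there. Over the members the wild-type root difference had a median of 1.25 and reached 4.65, and the shoot difference had a median of 0.00.

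**Figure D1:**
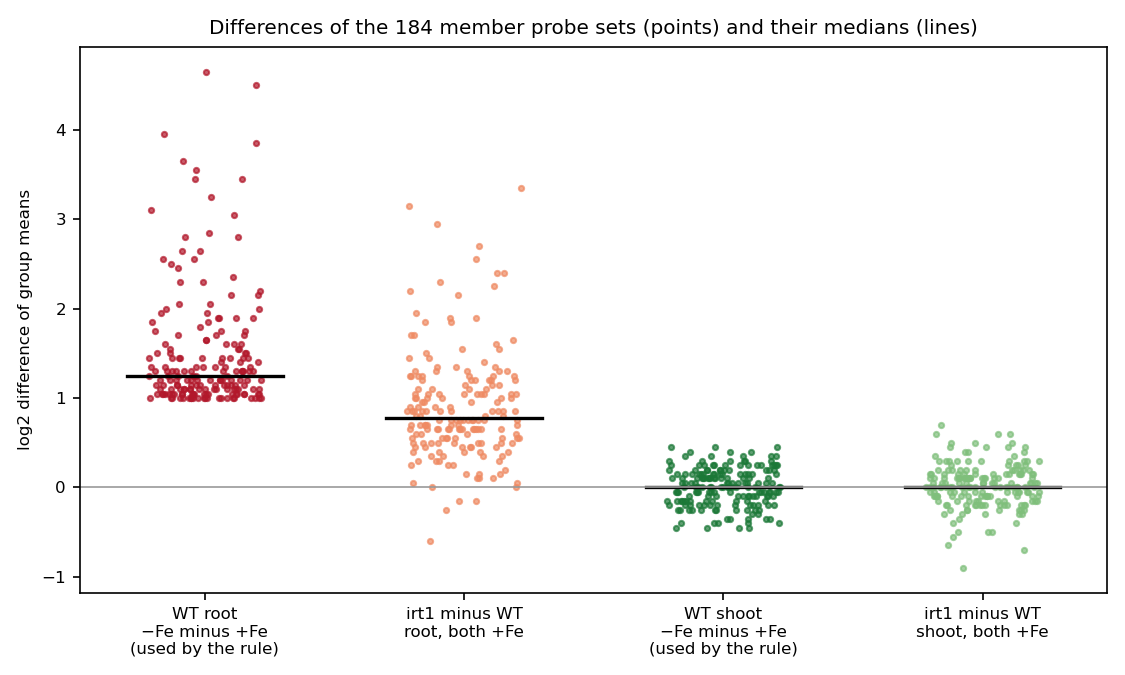
Log2 differences of group means of the 184 member probe sets (points) with their medians (lines), for wild-type and irt1 roots on the left and wild-type and irt1 shoots on the right. The wild-type values were used to choose the members; irt1 roots have a median of 0.78 and irt1 shoots of 0.00.

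The replicates of wild-type roots without Fe differed in level. Replicate 2 was above replicate 1 for 149 members, below it for 25 and equal for 10, with a median of 0.3 against 0.0 over all probe sets. The SD of the replicate difference over the members was 0.326 in these roots, 0.304 in irt1 roots and 0.276 in wild-type roots with Fe. In shoots it was 0.248 without Fe in wild type, 0.365 in irt1 and 0.381 with Fe in wild type.

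The first question was whether the same transcripts are high in roots of a plant that lacks the transporter but is supplied with Fe. Of the 184 members, 97 (52.7%) were called higher in irt1 roots than in wild-type roots with Fe and 0 lower, against 1.88% and 1.52% of all probe sets (limma, Benjamini-Hochberg adjusted p under 0.05 over 22746 probe sets). At an unadjusted p under 0.05, 155 members were higher and 1 was lower. The share of all probe sets at an unadjusted threshold is not given, here or below, so nothing is read from such counts. The median log2 difference was 0.78, with a range of -0.60 to 3.35, and 178 members lay above 0. Both irt1 root arrays exceeded both wild-type arrays for 162 members, and lay below both for 2, against 15.9% and 21.1% of all probe sets. The wild-type root arrays with Fe that serve here as the controls also served to choose the members, so the direction of this comparison is not independent of the choice. The count of 97 became 61 and 58 without replicates 1 and 2 of the wild-type roots with Fe, and 50 without irt1 replicate 1. With only the 6 root arrays in the model it was 35, and it was 0 in a model of the 2 groups alone.

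At the median, the mutant roots lay between Fe-starved and Fe-supplied wild-type roots, a position that the choice of members favours. Of the 184 members, 54 (29.3%) were called lower in irt1 roots with Fe than in wild-type roots without Fe and 0 higher, where 0.774% and 1.06% of all probe sets were called, with a median log2 difference of -0.60. At an unadjusted p under 0.05, 127 were lower and 3 higher, with no share of all probe sets at that threshold to set beside them. The wild-type arrays in this comparison also chose the members, so its direction is not independent of the choice. Members had to be higher in wild-type roots without Fe than with Fe. Values of other root arrays in between are therefore partly built in. The count of 54 became 13 without replicate 2 of the wild-type roots without Fe, 19 and 14 without irt1 replicates 1 and 2, and 1 with only the root arrays in the model.

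With both calls set side by side, 74 members were higher in irt1 roots and not called below Fe-starved wild type, and 23 were higher in irt1 roots and called below it. A further 31 were not called in irt1 and called below Fe-starved wild type, and 56 had neither call. Taken singly, the 2 calls were made for 1.88% and 0.774% of all probe sets, and shares for the joint classes are not given. Both calls became fewer with only the root arrays in the model, as given above, so membership of these classes depends on the model.

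**Figure D2:**
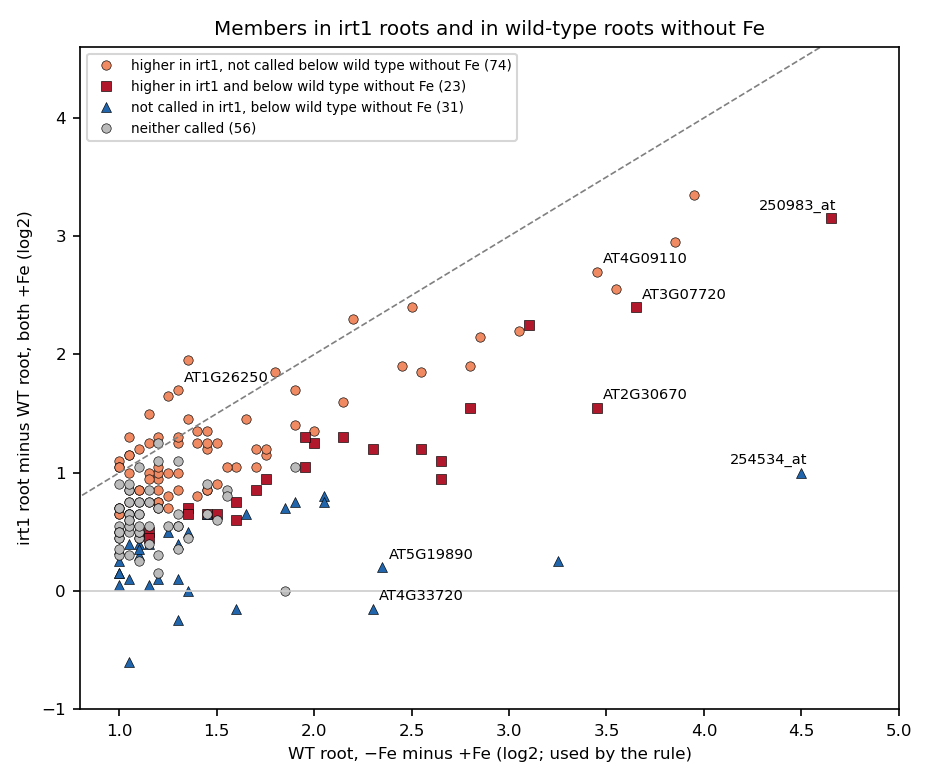
Each member's difference in irt1 roots (vertical axis, log2, irt1 minus wild type, both with Fe) against its difference in wild-type roots (horizontal axis, log2, without minus with Fe), with colours and symbols for the 4 classes of calls and a dashed line where both are equal. Both axes share the wild-type roots with Fe; AT1G26250 lies above the line, and AT5G19890, AT4G33720 and 254534_at lie near or below 1 on the vertical axis.

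The strongest members included both kinds. Probe set 250983_at, with no listed gene, read 10.3 and 10.6 in wild-type roots without Fe, 9.4 and 8.5 in irt1 roots, and 6.2 and 5.4 in wild-type roots with Fe. The 3 groups of root arrays did not overlap, and its 6 shoot arrays lay between 3.6 and 4.0. It was 8.88-fold higher in irt1 roots than in wild-type roots with Fe (log2 difference 3.15, SE 0.28; limma adjusted p = 0.000102) and lower than in Fe-starved roots by a log2 difference of -1.5 (adjusted p = 0.0215). The last call was lost without either wild-type array without Fe (adjusted p = 0.0949 and 0.209) or without irt1 replicate 2 (0.202). Probe set 254534_at, also unnamed, read 8.3 and 8.5 in wild-type roots without Fe, 5.4 and 4.4 in irt1 roots, and 4.0 and 3.8 in wild-type roots with Fe. The irt1 arrays lay between the other groups and far closer to the Fe-supplied one, by a log2 difference of 1.00 (SE 0.25; adjusted p = 0.0509) against -3.50 (adjusted p = 4.68e-05) from Fe-starved roots. The first of these lay at the threshold. It was called in 5 of 19 other settings, among them array weights (limma adjusted p = 0.0211) and trend and robust fitting (0.0318). In the others it was not called, the model of the root arrays alone and the replicate block among them. A further unnamed one, 267024_s_at, chosen after its values were seen, was high on the starved wild-type arrays alone, with 6.8 and 7.0 there, 3.9 and 3.9 in irt1 roots and 3.6 and 3.7 in wild-type roots with Fe. Its irt1 difference of 0.25 had an adjusted p of 0.298, and it stood -3.00 from Fe-starved roots (adjusted p = 1.02e-07).

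Among members with 1 gene, AT3G07720 had the largest wild-type difference. It encodes a protein with kelch repeats. Levels were 12 and 12.4 in wild-type roots without Fe, 11.0 and 10.9 in irt1 roots, and 8.6 and 8.5 in wild-type roots with Fe. On the shoot arrays it was also well expressed, at 7.6 and 7.5 without Fe, 7.4 and 7.3 in irt1, and 7.2 and 7.1 with Fe. The root groups were fully apart, and the shoot arrays kept the same order within a much narrower range. It was 5.28-fold higher in irt1 roots than in wild-type roots with Fe (log2 difference 2.40, SE 0.13; limma adjusted p = 3.69e-06), and not called in irt1 shoots (0.20; adjusted p = 0.479). Relative to Fe-starved roots it was lower in irt1 by -1.25 (adjusted p = 0.00118).

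**Figure D3:**
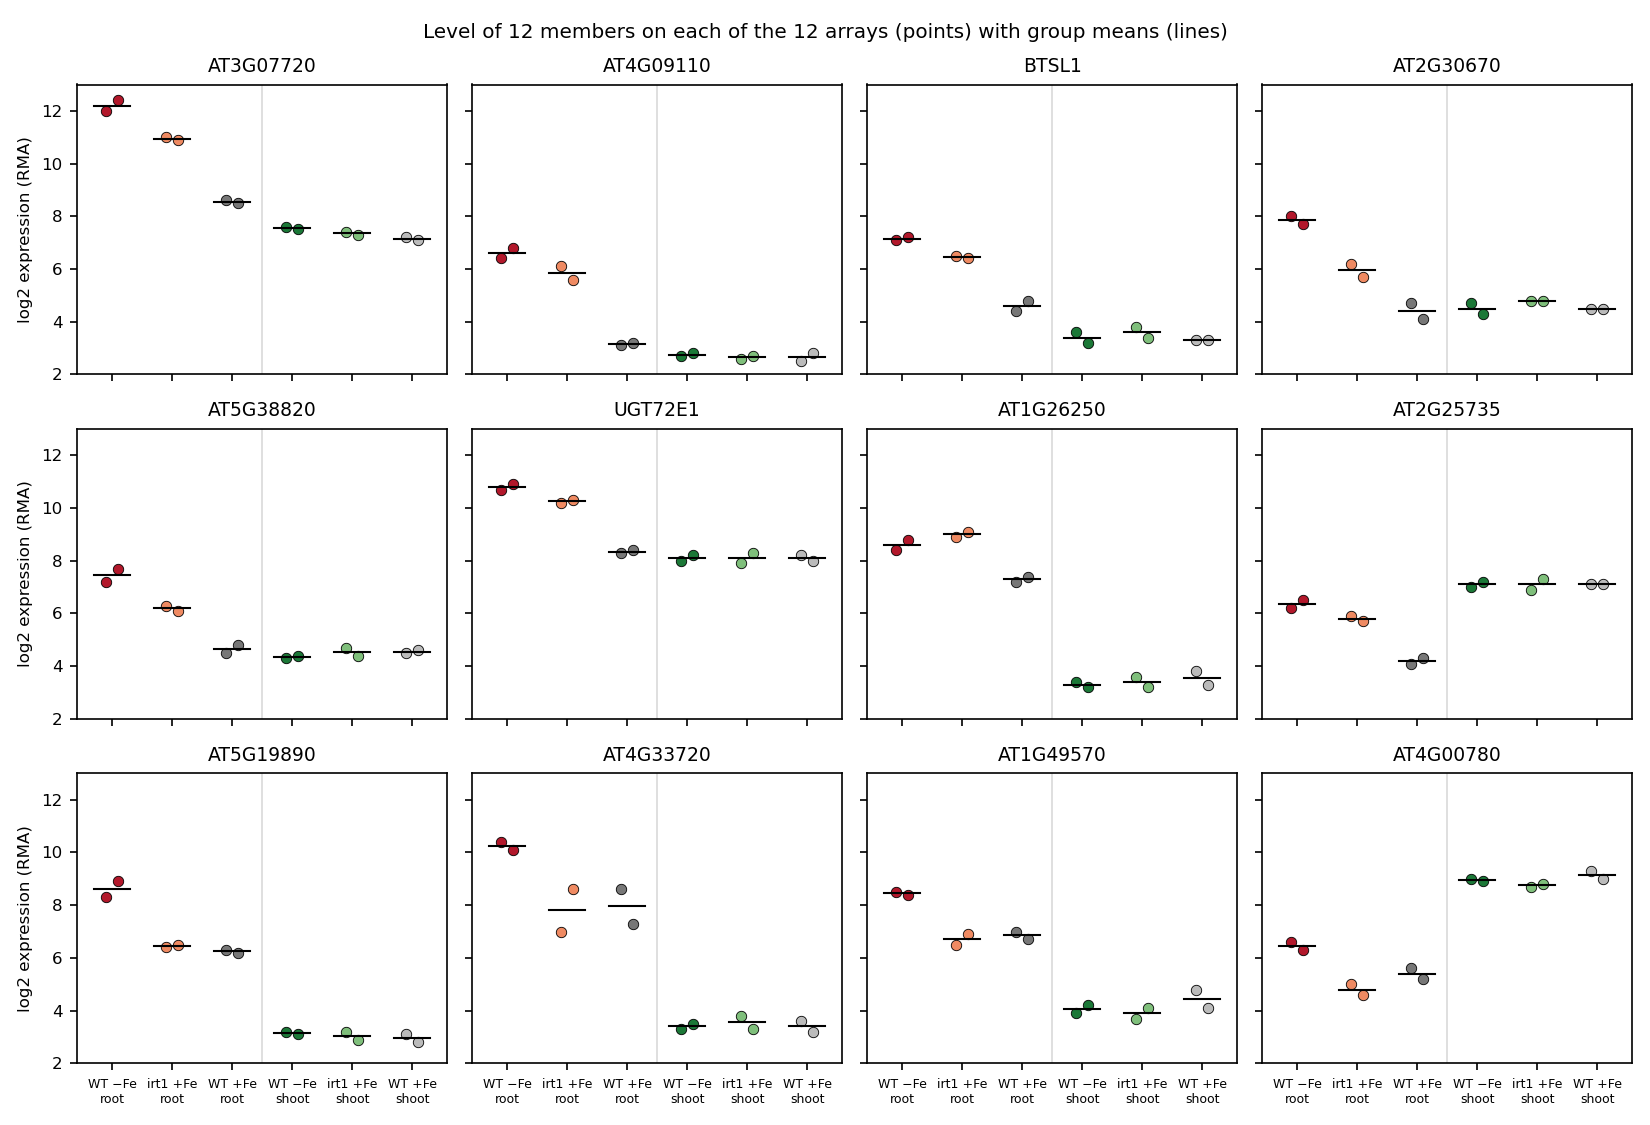
Log2 expression of 12 members on each of the 12 arrays (points) with group means (lines), roots left of the grey line and shoots right of it. In AT5G19890, AT4G33720 and AT1G49570 the irt1 root arrays sit with the wild-type root arrays that had Fe, and in AT1G26250 they sit above the Fe-starved ones.

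Ubiquitin ligase genes formed 1 of the larger groups of known function, with 7 members. The grouping by function was made after the members were known and carries no test of its own. Counts in such groups stand beside 52.7% of all members higher in irt1 roots, 29.3% below Fe-starved roots and 84.2% higher in irt1 roots than in irt1 shoots, and beside 1.88%, 0.774% and 28.5% of all probe sets. BTSL1 (AT1G74770) encodes a hemerythrin-domain ligase that limits the Fe uptake response in roots. Its member probe set read 7.1 and 7.2 in wild-type roots without Fe, 6.5 and 6.4 in irt1 roots, and 4.4 and 4.8 in wild-type roots with Fe. All 6 shoot arrays lay between 3.2 and 3.8. The irt1 roots exceeded the wild-type roots with Fe by a log2 difference of 1.85 (SE 0.17; limma adjusted p = 0.000159). The gene's second probe set, 262218_at, is no member, because its shoots differed as well: it read 5.7 and 5.9 in wild-type shoots without Fe, 5.3 and 5.1 in irt1 shoots, and 3.3 and 3.8 in wild-type shoots with Fe. That probe set rose in irt1 shoots by 1.65 (adjusted p = 0.000271, and 0.00643 without irt1 shoot replicate 1) and in irt1 roots by 1.75 (adjusted p = 0.000205). By this probe set the gene was not confined to roots, and which transcripts the 2 probe sets detect was not tested.

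AT4G09110 encodes a RING-finger ligase of the ATL family. It read 6.4 and 6.8 in wild-type roots without Fe, 6.1 and 5.6 in irt1 roots, and 3.1 and 3.2 in wild-type roots with Fe. The Fe-supplied wild-type roots were barely above the shoot arrays, which lay between 2.5 and 2.8, while the other root groups stood far above them. It rose in irt1 roots (log2 difference 2.70, SE 0.18; limma adjusted p = 8.73e-06). Its direct neighbour on chromosome 4, AT4G09100, of the same family, read 6.1 and 6.7 in wild-type roots without Fe, 5.3 and 5.1 in irt1 roots, and 5.1 and 5.1 in wild-type roots with Fe. There the irt1 arrays were level with the Fe-supplied ones, by 0.10 (adjusted p = 0.902), and below the Fe-starved ones by -1.20 (adjusted p = 0.0109). The difference between these neighbours was not tested.

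The other ligase genes were AT2G20030 of the ATL family, the U-box genes PUB23 and AT2G19410, and AT1G67800, of the copine-related RGLG type. In irt1 roots AT2G20030 rose by a log2 difference of 1.25 (limma adjusted p = 0.000995) and AT1G67800 by 0.65 (adjusted p = 0.0335). PUB23, a ligase of drought and immune signalling, read 8.2 and 8.6 in wild-type roots without Fe, 7.8 and 7.8 in irt1 roots, and 7.0 and 7.0 in wild-type roots with Fe, a difference of 0.80 (adjusted p = 0.0299). That call was lost without any 1 of the 4 arrays compared (adjusted p = 0.166 to 0.185). AT2G19410 stood at 0.75 (adjusted p = 0.152). In all, 5 of the 7 were called higher in irt1 roots, 3 were called below Fe-starved wild type, and all 7 were called higher in irt1 roots than in irt1 shoots.

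Receptor-like kinases of the LRR-I type, with malectin-like and leucine-rich repeat domains outside the cell, supplied 9 members. None of them had a wild-type root difference above 1.45. In irt1 roots 6 of the 9 were called higher, with a median log2 difference of 1.05. AT1G51830 read 7.4 and 7.2 in wild-type roots without Fe, 7.6 and 7.2 in irt1 roots, 6.2 and 6.2 in wild-type roots with Fe, and 2.9 to 3.2 on the shoot arrays. The irt1 and Fe-starved arrays overlapped, and both lay above the Fe-supplied ones. AT1G51860 and AT5G59680 likewise differed by 1.25 (limma adjusted p = 0.00194) and 1.3 (adjusted p = 0.0044) in irt1 roots. The median of irt1 roots against Fe-starved wild type was -0.05 for the 9, and AT3G46340 was the 1 called lower there (-0.65; adjusted p = 0.0457).

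For the family as a whole, a list of 43 loci was written after the members were known, and 33 were measured, the 9 members included. Their median wild-type root difference was 0.45, from -0.10 to 1.45, with 11 called higher and 0 lower, where 2.69% and 2.5% of all probe sets were called. Of the 11, 8 are members, which were chosen by this same difference, so the count is a description and not evidence about the family. In irt1 roots the median of the 33 was 0.35, with 9 called higher, 6 of them members, and 0 lower. Beside these stand 1.88% and 1.52% of all probe sets. The wild-type root values helped to set which of the 33 are members, and nothing is read from that split. AT1G51830, AT1G51860 and AT1G51890 lie close together on chromosome 1, and the part that cross-hybridisation between near copies plays in these values was not tested.

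**Figure D4:**
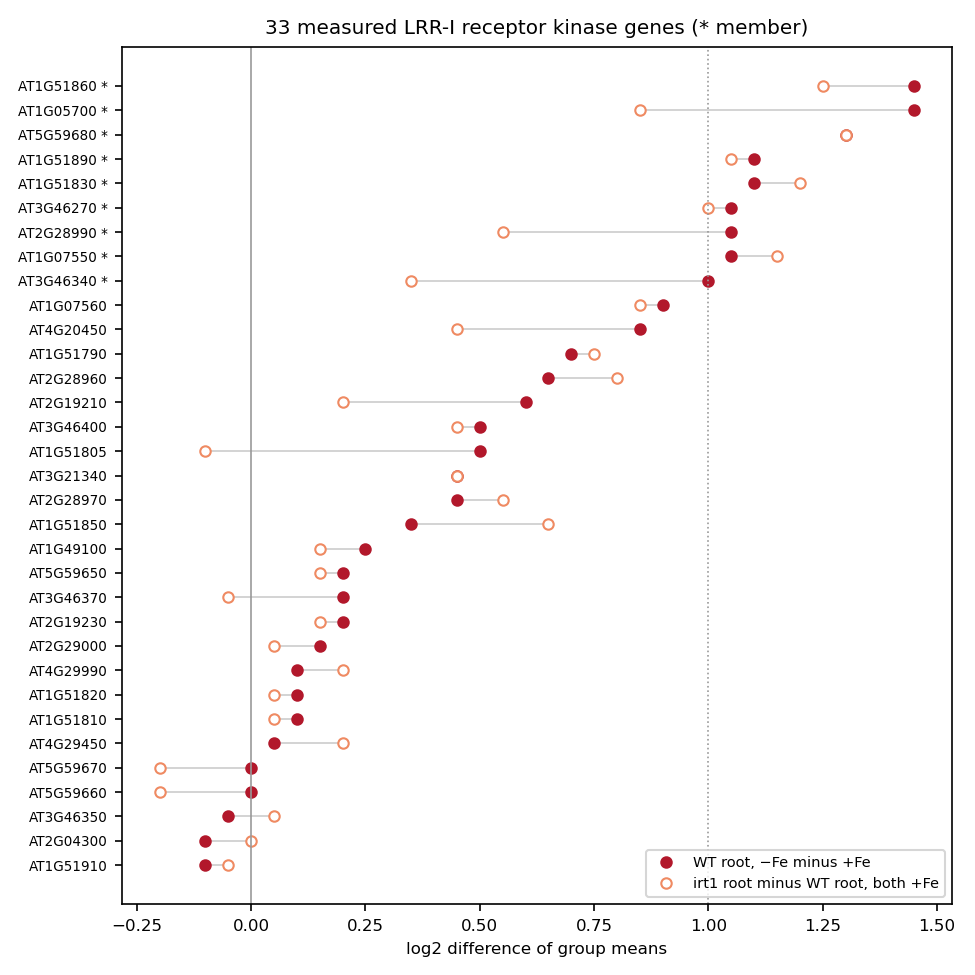
Log2 differences of 33 measured LRR-I receptor kinase genes in roots, for wild type without minus with Fe (filled) and irt1 minus wild type, both with Fe (open), ordered by the first. The dotted line at 1 is the root threshold of the choice; the 9 members are marked by an asterisk, and AT5G59680 and AT3G21340 have both points at the same place.

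Of the 3 other kinase genes, AT1G77280 and AT5G35580 rose in irt1 roots, by log2 differences of 1.20 (limma adjusted p = 0.00219) and 0.75 (adjusted p = 0.00661). AT1G72540, a receptor-like cytoplasmic kinase gene, was the other one: it read 4.4 and 5.1 in wild-type roots without Fe, 3.3 and 3.5 in irt1 roots, and 3.4 and 3.4 in wild-type roots with Fe. Its irt1 and Fe-supplied arrays overlapped, and irt1 lay below Fe-starved roots by -1.35 (adjusted p = 0.0054).

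The 3 class III peroxidase genes, whose products carry haem and use hydrogen peroxide at the cell wall, were not called in irt1 roots. AT5G19890 read 8.3 and 8.9 in wild-type roots without Fe, 6.4 and 6.5 in irt1 roots, and 6.3 and 6.2 in wild-type roots with Fe. The irt1 arrays lay just above the Fe-supplied ones and far below the Fe-starved ones, by log2 differences of 0.20 (SE 0.18; limma adjusted p = 0.719) and -2.15 (SE 0.18; adjusted p = 0.000203). AT1G49570 read 8.5 and 8.4 in wild-type roots without Fe, 6.5 and 6.9 in irt1 roots, and 7.0 and 6.7 in wild-type roots with Fe. Its irt1 and Fe-supplied arrays overlapped (-0.15; adjusted p = 0.854), and irt1 was below Fe-starved roots by -1.75 (adjusted p = 0.00388), a call lost without irt1 replicate 1 (0.0522). The third, AT1G34510, stood at 0.90 in irt1 roots (adjusted p = 0.0603) and -0.10 from Fe-starved roots. Thus 0 of 3 peroxidase genes passed in irt1 roots and 2 of 3 were called below Fe-starved wild type.

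All 4 genes for other oxidoreductases rose in irt1 roots. AT2G30670, of the tropinone-reductase-like dehydrogenases, read 8.0 and 7.7 in wild-type roots without Fe, 6.2 and 5.7 in irt1 roots, and 4.7 and 4.1 in wild-type roots with Fe. The irt1 arrays were apart from both other groups, at 1.55 above the Fe-supplied one (SE 0.22; limma adjusted p = 0.00219) and -1.9 from the Fe-starved one (adjusted p = 0.00141). AT1G60750, an aldo-keto reductase gene, read 5.9 and 5.6 in wild-type roots without Fe, 5.9 and 6.3 in irt1 roots, and 4.6 and 4.6 in wild-type roots with Fe, a rise of 1.5 in irt1 (adjusted p = 0.000315). AT4G25090, for a respiratory burst NADPH oxidase, and AT5G51310, for an oxygenase that itself uses ferrous iron, rose by 0.95 (adjusted p = 0.00585) and 0.65 (adjusted p = 0.0189).

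The glutathione-linked members differed in the organ with the higher level. GSTU25, a glutathione transferase gene, read 10.4 and 10.4 in wild-type roots without Fe, 10.1 and 9.8 in irt1 roots, and 9.5 and 9.2 in wild-type roots with Fe, and 3.3 to 4.1 in shoots. AT4G15690, for a CC-type glutaredoxin, read 5.0 and 4.8 in wild-type roots without Fe, 3.8 and 4.1 in irt1 roots, and 3.9 and 3.9 in wild-type roots with Fe, but 7.0 to 7.3 in shoots. GRX480, a glutaredoxin of TGA-factor signalling, stood at 0.70 in irt1 roots (limma adjusted p = 0.0923). Of the 3, 0 were called in irt1 roots, and AT4G15690 was called below Fe-starved roots (-0.95; adjusted p = 0.014), a call lost without any 1 of the 4 arrays compared (0.055 to 0.132).

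Transport and metabolism supplied further strong members. AT5G38820, of an amino acid transporter family, read 7.2 and 7.7 in wild-type roots without Fe, 6.3 and 6.1 in irt1 roots, and 4.5 and 4.8 in wild-type roots with Fe. The 3 groups were apart, with irt1 at 1.55 above the Fe-supplied roots (SE 0.17; limma adjusted p = 0.000535) and -1.25 from the Fe-starved ones (adjusted p = 0.0051). The last call was lost without wild-type replicate 2 without Fe (0.0552) or irt1 replicate 2 (0.0713). AT4G34950, of the major facilitator superfamily, rose in irt1 roots by 0.65 (adjusted p = 0.0178) but was higher in shoots, at 9.2 to 9.5 on those arrays.

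UGT72E1, a glucosyltransferase of phenylpropanoid aldehydes, read 10.7 and 10.9 in wild-type roots without Fe, 10.2 and 10.3 in irt1 roots, and 8.3 and 8.4 in wild-type roots with Fe. The irt1 roots were close to the Fe-starved ones, and all 6 shoot arrays, from 7.9 to 8.3, were close to or at the level of Fe-supplied roots. It rose 3.73-fold in irt1 roots (log2 difference 1.9, SE 0.15; limma adjusted p = 3.43e-05). AT2G30660, of the crotonase family, is the direct neighbour of AT2G30670 on chromosome 2. It read 6.6 and 6.8 in wild-type roots without Fe, 5.3 and 5.0 in irt1 roots, and 4.2 and 3.9 in wild-type roots with Fe, so that irt1 stood apart from both (1.1; adjusted p = 0.00319, and -1.55; adjusted p = 0.0011). The first of these calls was lost without wild-type replicate 2 with Fe (0.0502) or irt1 replicate 1 (0.0567).

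Among other enzyme genes, the GDSL lipase gene AT2G03980 rose in irt1 roots by 0.85 (limma adjusted p = 0.0371). FOLB1, for an aldolase of folate synthesis, stood at 0.05 (adjusted p = 0.913) and was below Fe-starved roots by -1.1 (adjusted p = 0.00976). APS3, for an ATP sulfurylase of sulfate assimilation, and AT5G66120, for a dehydroquinate synthase of the shikimate pathway, were not called in irt1 roots, at 0.25 and 0.55. The chitinase gene CHI, at 0.75, had the widest spread of the group, with 4.3 and 6.3 in irt1 shoots and 5.8 and 4.2 in wild-type shoots with Fe.

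Cell wall genes were a further group. AT1G26250, for an extensin-like structural protein, read 8.4 and 8.8 in wild-type roots without Fe, 8.9 and 9.1 in irt1 roots, and 7.2 and 7.4 in wild-type roots with Fe, and between 3.2 and 3.8 in shoots. Both irt1 arrays lay above both Fe-starved ones, by 0.40 (limma adjusted p = 0.534), and the rise over Fe-supplied roots was 1.70 (SE 0.20; adjusted p = 0.000653). AT3G47040, for a glycosyl hydrolase, rose by 1.35 (adjusted p = 0.000665), while the pectin methylesterase gene AT5G04960, at 8.6 and 9.0 in wild-type roots without Fe, 8.2 and 8.1 in irt1 roots, and 7.7 and 7.7 in wild-type roots with Fe, stood at 0.45 (adjusted p = 0.219).

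The subtilase genes AT4G10510 and AT4G10550 lie near each other on chromosome 4. AT4G10510 read 5.1 and 5.7 in wild-type roots without Fe, 4.0 and 3.7 in irt1 roots, and 4.1 and 4.1 in wild-type roots with Fe, with irt1 lowest (-0.25; limma adjusted p = 0.598) and below Fe-starved roots by -1.55 (adjusted p = 0.00141). AT4G10550 rose in irt1 roots by 0.85 (adjusted p = 0.0317). The carboxypeptidase-like gene scpl20, at 7.6 and 7.8 in wild-type roots without Fe, 7.7 and 7.2 in irt1 roots, and 6.7 and 6.5 in wild-type roots with Fe, rose by 0.85 (adjusted p = 0.0306), a call lost without irt1 replicate 1 or either wild-type array with Fe (0.103 to 0.272).

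Calcium-binding proteins were encoded by 3 members. AT1G29020 and AT4G26470 rose in irt1 roots by 1.00 (limma adjusted p = 0.00566) and 0.85 (adjusted p = 0.0245). CML23, for a calmodulin-like protein, read 6.7 and 6.7 in wild-type roots without Fe, 6.1 and 6.0 in irt1 roots, and 5.8 and 5.6 in wild-type roots with Fe, a difference of 0.35 (adjusted p = 0.562). Its irt1 shoots read 4.2 and 5.1, below the other 4 shoot arrays at 5.4 to 5.7, and the lower value is from replicate 1, whose GAPDH control differed.

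Several named members fall in none of these groups. AT4G33720, of the CAP family of PR-1-like secreted proteins, read 10.4 and 10.1 in wild-type roots without Fe, 7.0 and 8.6 in irt1 roots, and 8.6 and 7.3 in wild-type roots with Fe. Its irt1 and Fe-supplied arrays each spread over more than a log2 unit and overlapped (-0.15; limma adjusted p = 0.905), and the call below Fe-starved roots (-2.45; adjusted p = 0.0242) was lost without irt1 replicate 1 (0.175) or any 1 of the 4 wild-type arrays without Fe (0.181 and 0.144 for roots, 0.0548 for each of the shoots). AT3G48450, of the RIN4-related NOI family, read 8.3 and 8.7 in wild-type roots without Fe, 7.6 and 7.2 in irt1 roots, and 6.3 and 6.1 in wild-type roots with Fe, with all 3 groups apart and a rise of 1.20 in irt1 (adjusted p = 0.00422). That call was lost without wild-type replicate 2 with Fe (0.0622) or irt1 replicate 1 (0.0681). TET8, a tetraspanin found on plant extracellular vesicles, rose by 0.70 (adjusted p = 0.00749), and was not called without irt1 replicate 1 (0.0918) or wild-type replicate 1 with Fe (0.082).

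AT2G25735 was high in shoots and low in Fe-supplied roots alone. It read 6.2 and 6.5 in wild-type roots without Fe, 5.9 and 5.7 in irt1 roots, and 4.1 and 4.3 in wild-type roots with Fe, against 6.9 to 7.3 on the 6 shoot arrays. The rise in irt1 roots was 1.6 (SE 0.16; limma adjusted p = 0.000205), which left them below irt1 shoots by -1.3 (adjusted p = 1.88e-05). AT4G00780, of the TRAF-like family, had the lowest difference of irt1 from Fe-supplied roots among the members, at 6.6 and 6.3 in wild-type roots without Fe, 5.0 and 4.6 in irt1 roots, and 5.6 and 5.2 in wild-type roots with Fe. Both irt1 arrays lay below both Fe-supplied ones, by -0.60 (adjusted p = 0.111), and its shoots read 8.7 to 9.3.

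For the 89 members with no listed gene, the median log2 difference in irt1 roots was 0.80, with 48 called higher and 0 lower. Beside these stand 1.88% and 1.52% of all probe sets. Of the 89, 21 were called below Fe-starved roots, beside 0.774% of all probe sets. The wild-type arrays in both comparisons also chose the members. Probe set 251545_at, chosen after its values were seen, had the largest irt1 difference of all members: it read 9.7 and 10.1 in wild-type roots without Fe, 9.6 and 9.0 in irt1 roots, and 6.1 and 5.8 in wild-type roots with Fe (3.35; limma adjusted p = 6.31e-06).

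With only the root arrays in the model, some irt1 root calls of the members named by rule were lost. These were 250983_at (limma adjusted p = 0.0568), AT5G38820 (0.0623), AT2G30660 (0.0737), AT3G48450 (0.0902), PUB23 (0.0902), TET8 (0.0902), AT2G30670 (0.0932) and scpl20 (0.143). Those of AT3G07720, AT4G09110, BTSL1, UGT72E1, AT1G26250 and AT2G25735 were kept. Leaving out a single array lost further calls of genes described above. Of the 97 calls in irt1 roots, 49 were lost without at least 1 array. Among those not yet described so, the highest adjusted p was 0.216 for AT1G67800, 0.062 for AT5G59680, 0.0743 for AT5G35580, 0.081 for AT4G25090, 0.197 for AT5G51310, 0.144 for AT4G34950, 0.349 for AT2G03980, 0.263 for AT4G10550, 0.0762 for AT1G29020 and 0.255 for AT4G26470. Of the 54 calls below Fe-starved roots, 44 were lost in this way, with a highest adjusted p of 0.129 for AT4G09100, 0.333 for AT3G46340, 0.0677 for AT1G72540 and 0.105 for FOLB1.

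Shoots of the mutant were the next question, since they too are short of Fe when uptake fails. Of the 184 members, 2 were called higher (1.09%) and 1 lower (0.543%) in irt1 shoots than in wild-type shoots with Fe, where 1.93% and 1.65% of all probe sets were called. At an unadjusted p under 0.05 the counts were 14 and 8. No share of all probe sets at that threshold is given, so nothing is read from them. AT3G29970 was the named one, at 4.2 and 4.2 in irt1 shoots and 3.6 and 3.4 in wild-type shoots with Fe (log2 difference 0.70; limma adjusted p = 0.0163). The others were 259980_at at 0.45 (adjusted p = 0.0439) and 251226_at at -0.70 (adjusted p = 0.0278). The groups did not overlap for 27 members in the higher direction and 21 in the lower, against 17.7% and 13.8% of all probe sets. Wild-type shoots with Fe also chose the members. None of these 3 was called without irt1 shoot replicate 1 (adjusted p = 0.0977, 0.212 and 0.169). Leaving out that array gave 1 other member higher and 0 lower, and the counts ran from 0 to 5 and from 0 to 2 with any 1 array left out, the 5 being without replicate 1 of the wild-type shoots with Fe.

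The difference between organs was then tested for the irt1 effect itself, as the irt1 effect in roots minus that in shoots. It was called higher in roots for 52 members (28.3%) and lower for 0, against 1.13% and 0.87% of all probe sets. At an unadjusted p under 0.05 the counts were 123 and 1, again with no share of all probe sets at that threshold. The wild-type arrays with Fe in both organs enter this contrast. They also chose the members, so its direction is not independent of the choice. In shoots, 46.2% of the members read 4.0 or less on each array, where differences are understated. Among named members the organ difference of the irt1 effect was largest for AT4G09110, at 2.70 (SE 0.25; limma adjusted p = 0.000261), and AT3G07720, at 2.20 (SE 0.19; adjusted p = 0.000176). The shoot arrays of AT4G09110 lay between 2.5 and 2.8. The count of 52 became 34 and 32 without replicates 1 and 2 of the wild-type roots with Fe, 27 without irt1 root replicate 1, and 39 without irt1 shoot replicate 1.

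None of the 4 irt1 arrays had a part in choosing the members. On the wild-type arrays the members already read higher in roots than in shoots, with Fe too, so the organ difference in irt1 is a description of the chosen set in other samples. Most members were higher in roots there as well. Of the 184, 155 (84.2%) were called higher in irt1 roots and 14 (7.61%) lower, where, as above, 28.5% and 24.1% of all probe sets were called, with a median log2 difference of 2.00. Without irt1 shoot replicate 1 the counts were 147 and 13. GSTU25 was higher in irt1 roots than in irt1 shoots by a log2 difference of 6.60 (SE 0.20; limma adjusted p = 8.61e-11). Its irt1 shoots read 3.4 and 3.3, near the lower end of the scale, where the size of a difference is not exact. AT3G54040, of the PAR1 family, followed among named members with 6.30, and then AT1G26250 with 5.60 and AT5G04960 with 5.2. AT3G54040 read 10.7 and 10.8 in wild-type roots without Fe, 10.6 and 10.7 in irt1 roots, and 9.5 and 9.6 in wild-type roots with Fe. The irt1 and Fe-starved arrays were nearly level, both above the Fe-supplied ones. Its irt1 root difference of 1.1 had an adjusted p of 0.0544. It was called in 7 of 19 other settings, among them without either wild-type shoot array with Fe and with only the root arrays (limma adjusted p = 0.0214). In the others it was not called, trend and robust fitting among them. Wild-type shoots with Fe read 4.1 and 5.2 for this gene.

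**Figure D5:**
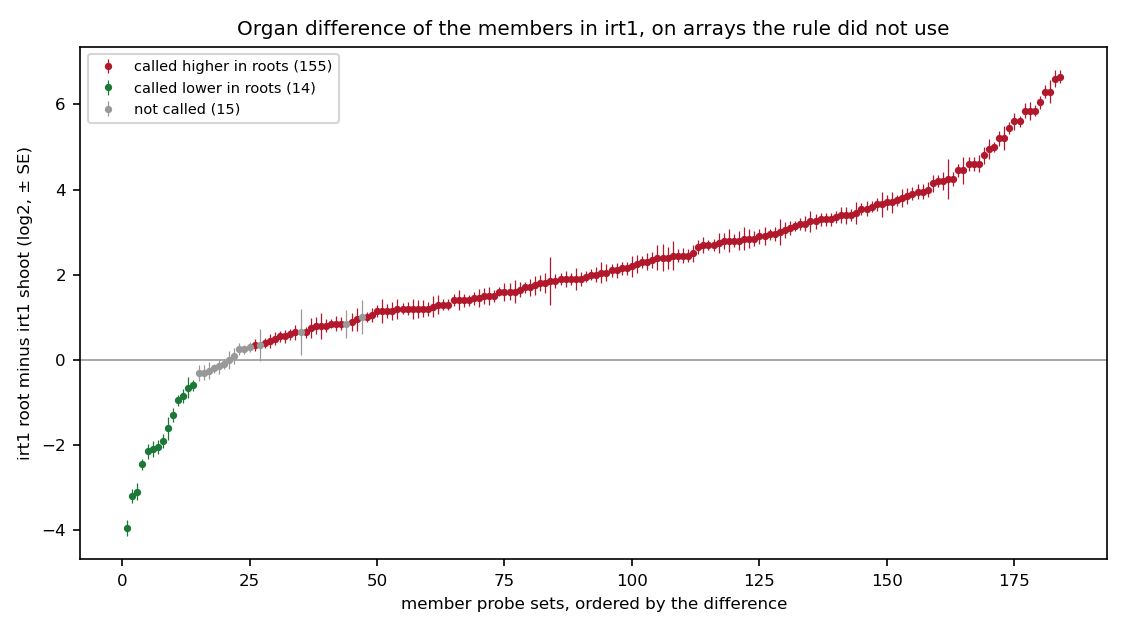
Difference between irt1 roots and irt1 shoots (log2, with the SE of the model) for each of the 184 members, ordered by size; none of these arrays was used to choose the members. Of the members, 155 are called higher in roots, 14 lower and 15 neither.

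The 14 members that were lower in irt1 roots than in irt1 shoots include the glutaredoxin, lipase, folate and sulfate assimilation genes described above. They were AT4G00780 (-3.95), AT4G15690 (-3.20), AT2G03980 (-3.10), AT4G34950 (-2.45), FOLB1 (-1.9), AT4G33666 (-1.6), AT2G25735 (-1.3), AT3G29970 (-0.95), AT4G38950 (-0.85), APS3 (-0.65) and AT5G44730 (-0.60), and the unnamed 260308_at (-2.15), 252989_at (-2.10) and 254331_s_at (-2.05). Their flat shoot difference was in some cases measured well above the lower end of the scale, as at 7.0 to 7.3 for AT4G15690 and 9.2 to 9.5 for AT4G34950. Without irt1 shoot replicate 1, APS3 was no longer called (adjusted p = 0.393) and the other 13 were.

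Other probe sets with a wild-type root difference of 1 or more and root arrays apart numbered 65 with a shoot difference above 0.45 and 10 with one below -0.45. In irt1 roots 24 of the 65 (36.9%) and 3 of the 10 (30.0%) were called higher, beside 1.88% of all probe sets. In irt1 shoots 30 of the 65 (46.2%) were called higher, beside 1.93%, and 20 without irt1 shoot replicate 1. The difference of the irt1 effect between organs was called lower in 13 and higher in 0 of the 65, beside 0.87% and 1.13%, and lower in 11 without that array. Against irt1 shoots, 20 of the 65 were called higher and 30 lower in irt1 roots, beside 28.5% and 24.1%, and 20 and 26 without it. These sets were chosen by the wild-type shoot values, and the differences between them were not tested.

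Members near the limits were not sharply set off from their neighbours. TET8 and AT4G26060 were just inside the root threshold with wild-type differences of 1.00, and AT1G22930 and AT5G42830 just outside it with 0.95. At the upper shoot limit, AT3G07720 and scpl20 were inside with 0.40, and AT1G74450 and GH3.3, for an auxin-conjugating enzyme, outside with 0.50. At the lower one, AT4G24380 and AT1G49570 were inside with -0.40, and AT5G40590 and AT4G29780 outside with -0.55. Of the 92 member genes, 2 had a further named probe set, and neither met the rule. Besides BTSL1 this was AT3G57160, whose other probe set differed by 0.15 in wild-type roots.

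Well-known genes of root Fe acquisition were measured only in part. Of a list of 21 uptake and mobilisation loci 5 were measured. Of these, 4 met the rule and were left out by name, and 3 were called higher and 0 lower in irt1 roots. Counts by the wild-type root contrast, which is that of the rule, are given for the other lists as a description. Of 24 loci for Fe-deficiency regulators 14 were measured, with 6 higher in wild-type roots without Fe, 5 in irt1 roots and 0 lower. In wild-type shoots without Fe 5 were also called higher and 0 lower, where 2.67% and 2.19% of all probe sets were called. BTSL1 enters this list by 262218_at, which is no member, with a wild-type shoot difference of 2.25 against 0.10 for its member probe set. BTSL2, also on this list, met the rule and was left out by name. Of 24 loci for zinc, manganese and copper transport 4 were measured, and 2, which met the rule and were left out by name, were called higher in irt1 roots. Of 18 phenylpropanoid and coumarin loci 5 were measured, with 3 higher in wild-type roots without Fe and 2 in irt1 roots. The 2 were F6H1 and S8H, which are also on the uptake list, met the rule and were left out by name. COSY is on both lists too, so these lists are not separate. Beside the counts of all these lists stand 2.69% of all probe sets higher in wild-type roots without Fe and 1.88% higher in irt1 roots. Of 22 loci for ethylene, methionine and S-adenosylmethionine 1 was measured and not called.

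Markers of root cell types were few. Of 16 root hair loci 3 were measured. Their log2 differences were 0.20 to 2.35 in wild-type roots without Fe, where 2 were called higher. In irt1 roots they were 0.15 to 1.85, with 1 called higher. Both upper values and the irt1 call are those of XTH26, which met the rule and was left out by name. EXPA7 and EXPA18 stood at 0.15 and 0.40 in irt1 roots and were not called there. The shares of all probe sets to set beside these counts are 2.69% for wild-type roots without Fe and 1.88% for irt1 roots. Loci for endodermis and suberin (19) and stele (12) had 0 measured members each. The 4 measured root-predominant genes of 10 loci had a median of 0.05 in wild-type roots without Fe, with 1 called higher, and 0.20 in irt1 roots, with 0 called. The 6 measured photosynthesis genes of 25 loci had medians of -1.20 and -0.92, with 5 called lower in each. The sixth, LHCB4.3, differed by 0.00 in wild-type roots and by 0.55 in irt1 roots. Their part in the members' values was not tested.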

How the data were processed

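The deposited table holds log2 expression values that the authors made with RMA, per the submitters' processing notes, rounded to 1 decimal, so that group-mean differences move in steps of 0.05. Neither the RMA version nor whether both organs were normalised in 1 run is given in the sources used here. Groups and replicate numbers came from the sample titles. The 64 Affymetrix control probe sets among 22810 were not tested. Genes are those of GEO's platform annotation, an old one in part, and symbols those of RefSeq (assembly TAIR10.1): 13513 probe sets had 1 gene, 503 several and 8730 none.

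A linear model with a mean per group was fitted to all 12 arrays with limma 3.58.1 in R 4.3.3 (6 residual degrees of freedom, eBayes without trend or robust fitting, two-sided), and 5 contrasts of the irt1 groups were tested. The wild-type contrasts of each organ were fitted as well, and their calls are given only as counts for gene lists. Benjamini-Hochberg adjustment ran over 22746 probe sets, and a call is an adjusted p under 0.05 with no minimum difference. SEs are those of this model. With 2 arrays a group, exact permutation cannot go under a p of 0.333 and was not used. The number of arrays limits the precision.

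The members, the gene lists and the rule for named genes were chosen with earlier results of these data known. That rule took the members with 1 gene that had the 10 highest wild-type root differences. It added the 6 highest and 4 lowest irt1 root differences and the 4 highest and 2 lowest differences between irt1 organs. It also took members on 10 fixed lists, the 3 strongest in each class of gene description, those nearest the limits, and the 2 strongest unnamed probe sets. The RefSeq table held no product descriptions, so classes were read from symbols and synonyms, and most members fell in none. Other genes are named as members of functional groups made after the members were known. Where a locus on a list had several probe sets, the one with the highest mean was used. The fit was tested on simulated data. Alternatives were array centring, renewed quantile normalisation, array weights, trend and robust fitting, a filter on dim probe sets, subsets of arrays, a replicate block, each array left out, a minimum difference of 1, and other limits for the members.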

Additional observations from a re-analysis of the deposited data

Results flagged for a closer look

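In 11 of the 27 members named by rule, the irt1 effect (irt1 minus wild type, both with Fe, log2) differed between roots and shoots by the model's test of that difference (limma adjusted p under 0.05). In each of them it was higher in roots, beside 1.13% of all probe sets called higher and 0.87% lower. The 27 were named in part for their high irt1 root differences, a component of this contrast, so their count is a description. The 11 values, root effect minus shoot effect, were 3.35 for the unnamed 250983_at, 2.70 for AT4G09110, 2.20 for AT3G07720, 1.9 for UGT72E1, 1.85 for AT1G26250, 1.6 for AT2G25735, 1.55 for AT5G38820, 1.55 for BTSL1, 1.20 for AT2G30660, 1.15 for AT3G48450 and 1.00 for AT4G24380. The wild-type arrays with Fe in both organs also chose the members. For BTSL1 the second probe set gave 0.10 (adjusted p = 0.896). AT3G48450 (adjusted p = 0.0499) and AT4G24380 (adjusted p = 0.0474) lay at the threshold: leaving out any 1 array lost the call of the first (adjusted p from 0.0552 to 0.196), and leaving out 9 of the 12 in turn lost that of the second (highest 0.196). Without irt1 shoot replicate 1, whose GAPDH integrity control differed from that of the other arrays, the calls of AT2G30660 (0.0866), AT3G48450 (0.0746) and AT4G24380 (0.156) were lost. Those of BTSL1 and AT5G38820 were lost without irt1 root replicate 1 (0.0575 and 0.0579), that of AT5G38820 also without wild-type root replicate 1 with Fe (0.0532), and that of AT2G30660 without any 1 of 5 arrays (highest 0.117).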

How the results depend on the processing

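Each count rests on a spread taken over all 12 arrays. In irt1 roots the 97 members called higher became 0 in a model of the 2 groups compared, 35 in one of the root arrays, 63 with a minimum difference of 1 and 43 with members chosen at 1.5 or more (58 members), and 50 to 103 with 1 array left out, while the 0 called lower became 1 with array weights and 1 with the replicate block. In irt1 shoots the 2 higher became 1 with array medians subtracted, 1 with dim probe sets left out, 1 with members chosen at a shoot difference within 0.25, and 0 with array weights, the 2 groups, shoot arrays, a minimum difference of 1 or members at 1.5. The 1 lower became 2 with array medians subtracted, dim probe sets left out, renewed quantile normalisation, or trend and robust fitting, and 0 in the other 6 (array weights, the 2 groups, shoot arrays, a minimum difference of 1, members at 1.5, shoot within 0.25). With 1 array left out these ran from 0 to 5 and from 0 to 2. Between irt1 organs the 155 higher and 14 lower became 52 and 3 with members at 1.5, and 145 to 156 and 13 to 14 with 1 array left out. The 52 whose irt1 effect was higher in roots became 32 with members at 1.5 and 27 to 53 with 1 array left out. The 54 members below Fe-starved roots became 0 with the 2 groups, 1 with root arrays, 25 with a minimum difference of 1, 28 with members at 1.5 and 13 to 56 with 1 array left out. Fewer samples or members enter several of these by construction; for the rest the cause was not tested. Medians over the members moved by at most 0.15 with any 1 array left out.

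The shared replicate numbers carry no stated pairing. Same-numbered arrays of 2 groups had deviations that correlated from -0.092 to 0.199, over 0.1 in 8 of 15 pairs of groups and not in the others, so the arrays were not treated as paired. With the replicate block, 100 members were higher in irt1 roots, 2 higher and 1 lower in irt1 shoots, 155 higher and 14 lower between irt1 organs, 58 higher by the organ difference and 62 below Fe-starved roots. The block also called AT4G00780 lower (0.0341) and AT3G54040 higher (0.0202) in irt1 roots. Of 2619 recomputed values of the 27 members named by rule, 122 lost a call (31 in models of the 2 groups, 66 with 1 array left out), 38 gained one and 0 changed sign with a call. Models of single organs were not applicable to contrasts between organs.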
